A study of Mus musculus with 8 samples.

Results

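The genes described here are those of the circadian clock and the PAR-bZIP family: Per1, Per2, Per3, Nfil3, Dbp, Tef, Hlf, Bhlhe40, Nr1d2 and Arntl, also called Bmal1. They were listed by name, with earlier results of these data known, so their counts are a description and not a blind sample. Of these 10 genes, 9 were measured, by 13 probes, among the 9416 genes that could be tested in mouse epidermis; no probe for Hlf was among the probes analysed. The study treated wild-type B6129 mice, 7 to 8 weeks old, with fluocinolone acetonide (FA), a synthetic glucocorticoid used on skin against inflammation. Its title names the sexual dimorphism of the transcriptional response as its subject. The groups were males given FA, males given vehicle, females given FA and females given vehicle, with 2 animals and 2 Illumina bead arrays each (8 arrays in all). All animals had been shaved 3 days earlier; the FA groups received 2 µg of FA in 200 µl of acetone once on the back skin and the vehicle groups acetone alone. Skin was taken 24 hours after treatment, and epidermal RNA was measured. The labels give no time of day for treatment or collection.

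The mammalian clock is a transcriptional loop. CLOCK and BMAL1 bind E-box elements and switch on the Period (Per) and Cryptochrome (Cry) genes, whose proteins return to repress them. In an accessory loop, REV-ERB proteins (Nr1d1 and Nr1d2) repress Arntl through ROR elements, which the ROR proteins use to activate it. The PAR-bZIP factors DBP, TEF and HLF, themselves under clock control, activate genes through D-box elements, and NFIL3 (E4BP4) binds the same element and represses. In skin the clock is known for timing keratinocyte division. Per1 is a known direct target of the glucocorticoid receptor, and glucocorticoids can reset clocks in peripheral tissues.

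Promoters of 4 of the genes that FA changed, Per3, Per1, Nfil3 and Arntl, are shown first, because they carry elements that the loop acts through. The sequences are RefSeq's, on build GRCm38.p6, from 250 bases before to 50 bases after the annotated start, read 5′ to 3′ along the gene's own strand; 8 of the 10 genes matched, with 11 starts. Capitals mark matches, on either strand, to the E-box CACGTG, the D-box TTATGTAA or TTACGTAA, the CRE TGACGTCA or the ROR element core TAGGTCA or TGGGTCA. Positions count from the start site, with negative ones before it. Per3 lies on the minus strand at chr4:151044616-151044915, with D-boxes at -205 and -158. Per1, at its first annotated start, lies on the plus strand at chr11:69098699-69098998, with an E-box at -166. Nfil3 lies on the minus strand at chr13:52980990-52981289, with a ROR core at -12 that is read on the opposite strand, so that its letters appear as TGACCTA. Arntl, at its second annotated start, lies on the plus strand at chr7:113207261-113207560, with a ROR core at position 31 of the transcribed part.
Per3 promoter: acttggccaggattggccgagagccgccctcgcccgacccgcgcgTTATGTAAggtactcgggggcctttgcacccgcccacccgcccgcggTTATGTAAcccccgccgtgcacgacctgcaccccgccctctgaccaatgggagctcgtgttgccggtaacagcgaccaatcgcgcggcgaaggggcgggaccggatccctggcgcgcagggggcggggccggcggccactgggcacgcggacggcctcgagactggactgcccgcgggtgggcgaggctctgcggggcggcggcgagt
Per1 promoter: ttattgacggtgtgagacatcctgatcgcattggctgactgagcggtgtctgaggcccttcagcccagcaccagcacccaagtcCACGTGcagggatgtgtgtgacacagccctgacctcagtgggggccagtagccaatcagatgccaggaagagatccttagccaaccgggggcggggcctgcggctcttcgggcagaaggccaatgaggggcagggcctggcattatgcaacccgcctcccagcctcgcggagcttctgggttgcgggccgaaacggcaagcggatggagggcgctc
Nfil3 promoter: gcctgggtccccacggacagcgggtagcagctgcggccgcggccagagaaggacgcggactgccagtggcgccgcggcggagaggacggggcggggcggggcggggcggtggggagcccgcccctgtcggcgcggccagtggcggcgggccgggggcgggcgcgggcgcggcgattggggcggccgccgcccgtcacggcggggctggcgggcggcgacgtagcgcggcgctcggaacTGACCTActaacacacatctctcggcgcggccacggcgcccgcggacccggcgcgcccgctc
Arntl promoter: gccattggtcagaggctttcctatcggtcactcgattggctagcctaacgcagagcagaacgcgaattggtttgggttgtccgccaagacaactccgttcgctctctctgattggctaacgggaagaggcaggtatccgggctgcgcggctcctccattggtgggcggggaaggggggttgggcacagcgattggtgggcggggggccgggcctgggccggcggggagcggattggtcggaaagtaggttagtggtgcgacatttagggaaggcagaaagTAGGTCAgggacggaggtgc

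Of 32851 promoters of this length in the table, 1.06% held a D-box, 7.15% an E-box, 1.79% the CRE and 6.45% a ROR core. No match overlapped one to another element. Tef held an E-box at both annotated starts, at -127 and -138, and Hlf a CRE at -9. The windows of Dbp and Nr1d2, the second start of Per1 and the first of Arntl held none of these letters. The glucocorticoid half-site pair ACANNNTGT, searched likewise, was in 6.85% of all promoters and in none of the 11 windows of these genes. Such a match is a run of letters, not a shown binding site, and no binding was measured here.

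On 7 of the 8 arrays 44.5% to 46.9% of the 25697 probes were detected (detection p under 0.05), and on female FA replicate 2 it was 32.4%. That array's median unprocessed intensity was 191, against 99.5 to 109 on the others, and its lowest detected log2 value was 5.88, against 4.90 to 4.99. The replicate arrays of a group correlated across genes at 0.955 in female FA and at 0.985 to 0.989 in the other groups. Basal keratinocyte markers were above background on every array, 7 of 7, with array means of 12.37 to 12.59 log2. Fkbp5, whose protein tempers glucocorticoid receptor signalling and whose gene is a standard sign of it, rose to 11.11 log2 in FA skin, against 7.09 in vehicle skin (limma adjusted p = 3.53e-05).

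FA changed 6 of the 9 measured clock and PAR-bZIP genes over both sexes, each sex with equal weight. Nfil3, Per1 and Arntl rose and Dbp, Bhlhe40 and Per3 fell, by 1.65-fold to 4.52-fold. Per2, Nr1d2 and Tef did not pass the test. The test was limma's moderated one on the 4 group means, and the threshold was 0.05 for the p-value adjusted over all 9416 genes (Benjamini-Hochberg). At that threshold 20.8% of all genes passed, 9.4% higher and 11.4% lower; the members' median change was -0.03 log2, against -0.02 over all genes. All intensities and differences below are on the log2 scale after normalization, errors of group means are SD over 4 arrays, and errors of differences are standard errors of the fit.

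**Figure D1:**
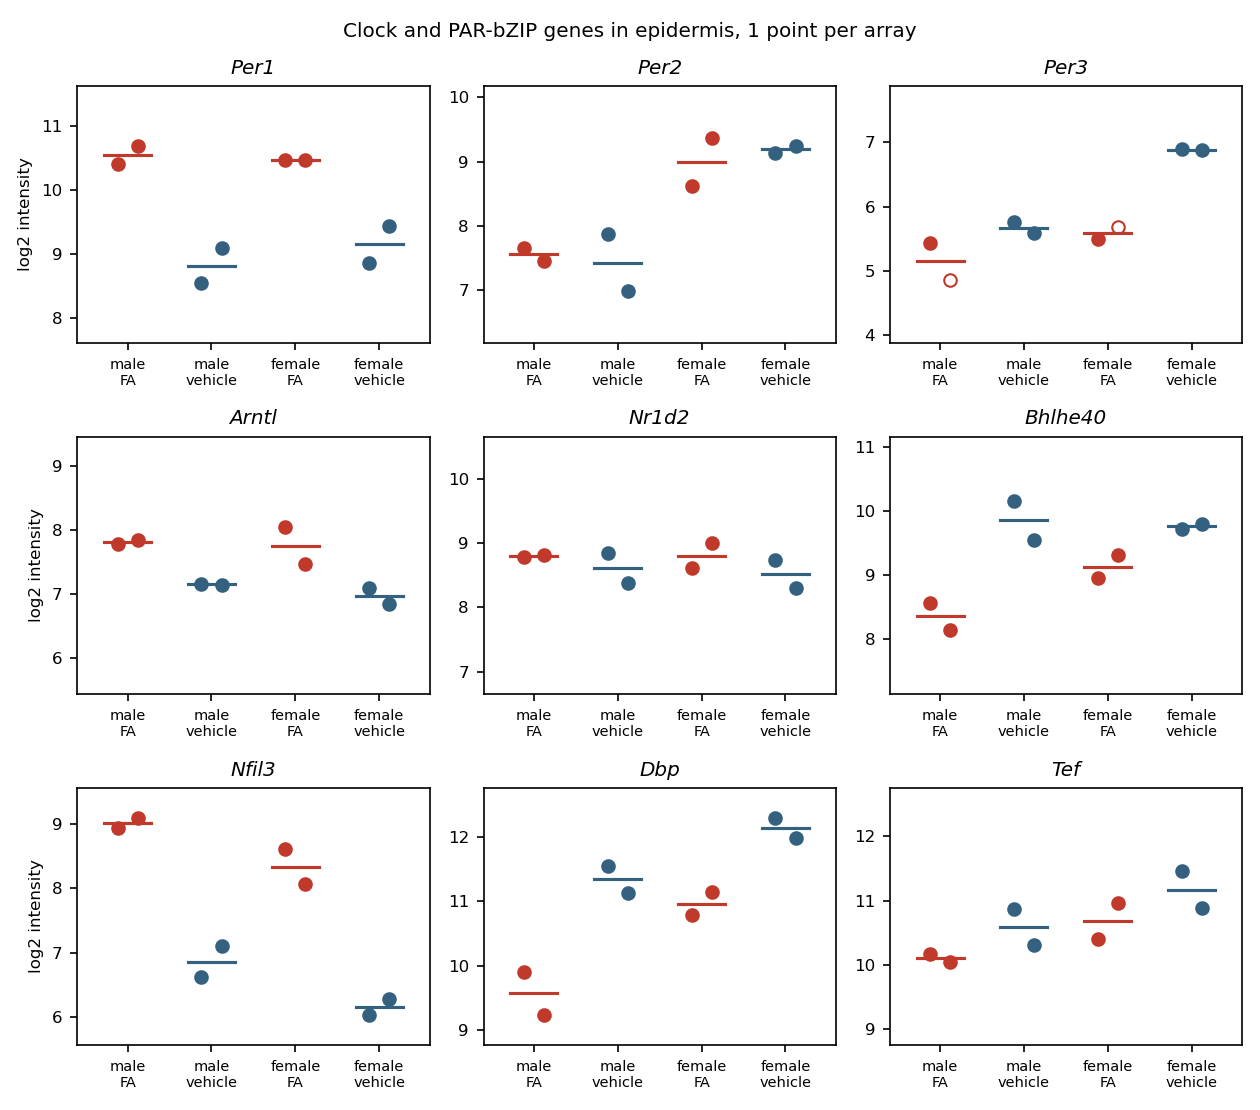
Normalized log2 intensity (vertical axis, a separate range of equal span for each gene) of the 9 measured genes on each of the 8 arrays, by group; red points are FA arrays, blue points vehicle arrays, open points lie on arrays where the probe was not above background, and bars are group means. Nfil3, Per1 and Arntl sit higher on all 4 FA arrays than on all 4 vehicle arrays, Bhlhe40 sits lower, and Per2 separates by sex instead.

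Among the D-box factors, the repressor rose and an activator fell. Nfil3, the D-box repressor, stood at 8.94 and 9.10 in FA males, 6.61 and 7.10 in vehicle males, 8.61 and 8.06 in FA females and 6.02 and 6.28 in vehicle females. All 4 FA arrays lay above all 4 vehicle arrays. It averaged 8.68 ± 0.46 in FA skin and 6.50 ± 0.46 in vehicle skin (SD, n = 4 each), a rise of 4.52-fold (2.18 ± 0.18 log2, 95% interval 1.76 to 2.59, limma adjusted p = 0.000319). It had the rank 43 among the 9416 genes ordered from the largest rise. Dbp, a D-box activator whose own gene is a classic CLOCK and BMAL1 target, stood at 9.91 and 9.24 in FA males, 11.55 and 11.14 in vehicle males, 10.79 and 11.15 in FA females and 12.29 and 11.99 in vehicle females. Within each sex both FA arrays lay below both vehicle arrays, but FA females and vehicle males overlapped. It averaged 10.27 ± 0.86 in FA skin and 11.74 ± 0.51 in vehicle skin (SD, n = 4 each), so it fell by 1.47 ± 0.20 log2, or 2.78-fold (95% interval -1.94 to -1.01, limma adjusted p = 0.00272), rank 155 from the largest fall.

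Tef, the other measured PAR-bZIP activator, stood at 10.18 and 10.05 in FA males, 10.87 and 10.32 in vehicle males, 10.41 and 10.97 in FA females and 11.46 and 10.88 in vehicle females. FA and vehicle arrays overlapped in females and did not overlap in males. Its difference was -0.48 ± 0.21 log2 with an interval of -0.97 to 0.01 (limma adjusted p = 0.147), which includes a fall of nearly the size of 1 log2 unit as well as none. With 1 array left out in turn, the difference of Tef ranged from -0.626 to -0.335 log2. It was -0.62 without female FA replicate 2, the array with the high background.

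The Period genes, whose proteins form the repressive arm of the loop, did not move together. Per1 stood at 10.40 and 10.69 in FA males, 8.55 and 9.10 in vehicle males, 10.46 and 10.46 in FA females and 8.87 and 9.43 in vehicle females. Its 4 FA arrays lay close together and above all 4 vehicle arrays. It averaged 10.50 ± 0.12 in FA skin and 8.99 ± 0.37 in vehicle skin (SD, n = 4 each), a rise of 2.86-fold (1.52 ± 0.19 log2, 95% interval 1.08 to 1.95, limma adjusted p = 0.0017). Its second probe stood at 8.52 and 8.90 in FA males, 6.89 and 7.45 in vehicle males, 8.69 and 8.43 in FA females and 7.38 and 7.74 in vehicle females, with all FA arrays again above all vehicle arrays. Fitted among all 13247 probes that passed the detection filter, it rose by 1.27 ± 0.18 log2 (limma adjusted p = 0.00375).

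Per3, which carries the pair of D-boxes printed above, stood at 5.44 and 4.86 in FA males, 5.76 and 5.59 in vehicle males, 5.50 and 5.69 in FA females and 6.89 and 6.88 in vehicle females. Vehicle females were more than 1 log2 unit above every other array, and FA females overlapped vehicle males. Its probe was not above background on male FA replicate 2 and female FA replicate 2, so those values lie at the low end of what the array can measure. Per3 fell by 0.91 ± 0.16 log2, or 1.88-fold (95% interval -1.27 to -0.54, limma adjusted p = 0.00746).

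Per2 stood at 7.66 and 7.46 in FA males, 7.87 and 6.99 in vehicle males, 8.62 and 9.37 in FA females and 9.14 and 9.25 in vehicle females. FA and vehicle arrays overlapped within both sexes, and the spread followed sex. Its FA difference was -0.03 ± 0.24 log2 (limma adjusted p = 0.935), with an interval of -0.60 to 0.53. A second Per2 probe gave 0.01 ± 0.16 (limma adjusted p = 0.964). The remaining Per2 probe, above background on the 2 male FA arrays alone, gave 0.09 ± 0.15 (limma adjusted p = 0.706).

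Of the other repressors, Bhlhe40 fell and Nr1d2 did not pass. Bhlhe40 (DEC1), which competes with CLOCK and BMAL1 at E-boxes, stood at 8.57 and 8.15 in FA males, 10.15 and 9.55 in vehicle males, 8.95 and 9.31 in FA females and 9.73 and 9.79 in vehicle females. All FA arrays lay below all vehicle arrays, and FA males lay lowest. It averaged 8.75 ± 0.50 in FA skin and 9.81 ± 0.25 in vehicle skin (SD, n = 4 each) and fell by 1.06 ± 0.18 log2, or 2.09-fold (95% interval -1.49 to -0.63, limma adjusted p = 0.00759). Nr1d2 (REV-ERB beta), a repressor of Arntl, stood at 8.78 and 8.81 in FA males, 8.85 and 8.37 in vehicle males, 8.60 and 9.0 in FA females and 8.74 and 8.30 in vehicle females. Its groups overlapped, and its difference was 0.23 ± 0.17 log2 (95% interval -0.17 to 0.64, limma adjusted p = 0.384). A second Nr1d2 probe, above background on 6 of the 8 arrays, stood at 5.04 and 5.58 in FA males, 5.13 and 4.45 in vehicle males, 5.47 and 4.88 in FA females and 5.61 and 5.18 in vehicle females; its difference was 0.15 ± 0.23 (limma adjusted p = 0.694).

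Arntl, which encodes the activator BMAL1, stood at 7.79 and 7.84 in FA males, 7.16 and 7.15 in vehicle males, 8.04 and 7.47 in FA females and 7.10 and 6.85 in vehicle females. All FA arrays lay above all vehicle arrays, and the FA females were the farthest apart of any pair. It averaged 7.79 ± 0.24 in FA skin and 7.06 ± 0.14 in vehicle skin (SD, n = 4 each), a rise of 1.65-fold (0.72 ± 0.16 log2, 95% interval 0.36 to 1.09, limma adjusted p = 0.0172). This call was lost without any 1 of 5 arrays: the adjusted p was 0.0547 and 0.0634 without male FA replicate 1 or 2, 0.0619 and 0.0667 without male vehicle replicate 1 or 2, and 0.0699 without female vehicle replicate 2. The difference stayed between 0.58 and 0.87 log2 whichever array was left out. Each such fit takes the lone array of its group to vary like the other groups.

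By their ranges alone, 4 of the 9 genes (Nfil3, Per1, Arntl and Bhlhe40) had FA and vehicle arrays that did not overlap, where 26.2% of all genes did. Apart from Arntl, the 5 calls over both sexes, those of Nfil3, Per1, Dbp, Bhlhe40 and Per3, held without each array in turn.

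Marker genes of other cell types were compared as well. Of all genes, 20.8% passed over both sexes, 9.4% higher and 11.4% lower. In females alone 10% passed, and in males alone 8.19%. Langerhans cell markers fell in 7 of 7 genes, with a median of -2.06 log2 and array means of 7.87 to 8.56 in FA males, 10.26 to 10.52 in vehicle males, 8.51 in FA females and 10.35 to 10.44 in vehicle females. Epidermal T cell markers fell in 5 of 7, with a median of -0.98, and fibroblast markers in 3 of 8, with a median of -1.06. Sebaceous gland markers fell in 3 of 6 (median -0.43) and hair follicle markers in 2 of 6 (median -0.34) over both sexes. In females alone 3 sebaceous gland markers fell (median -1.41) and 2 hair follicle markers (median -0.54). On both arrays of FA females, 3 of 6 sebaceous gland markers and 1 of 6 hair follicle markers were above background. The other values of FA females lie wholly or partly at the low end of what the array can measure. In males alone none of either set fell and 1 sebaceous gland marker rose (medians -0.08 and -0.14). No marker of either set passed for the difference of FA effects between the sexes. Of 6 neutrophil and macrophage markers 3 rose and 2 fell, with a median of 0.86. Skeletal muscle markers had a median FA difference of 1.36 in males, where 1 of 9 rose, and -1.64 in females, where 0 passed in limma. Basal keratinocyte markers had 2 of 7 higher and 2 lower and a median of 0.06. Suprabasal ones had 1 of 6 higher and 1 lower and a median of -0.18. The counts of suprabasal markers, and of skeletal muscle markers in males, were near the shares of all genes. The part of the marker shifts in the clock genes' changes was not tested. In bulk RNA, fewer cells of a type and less RNA per cell cannot be told apart.

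Of the 9 genes, 8 had FA differences of the same sign in males and females, where 69.7% of all genes did. The exception was Per2, whose differences were small in both. In males 4 of 9 passed, where 8.19% of all genes did: Nfil3 (2.17 ± 0.25 log2, limma adjusted p = 0.00363) and Per1 (1.72 ± 0.26, adjusted p = 0.00956) rose, and Dbp (-1.77 ± 0.28, adjusted p = 0.0113) and Bhlhe40 (-1.495 ± 0.26, adjusted p = 0.0147) fell. In females 4 of 9 passed, where 10% of all genes did: Nfil3 (2.19 ± 0.25 log2, limma adjusted p = 0.00289) and Per1 (1.31 ± 0.26, adjusted p = 0.0241) rose, and Per3 (-1.30 ± 0.22, adjusted p = 0.0134) and Dbp (-1.17 ± 0.28, adjusted p = 0.0423) fell. Arntl passed in neither sex alone, at 0.66 ± 0.22 in males (limma adjusted p = 0.117) and 0.78 ± 0.22 in females (limma adjusted p = 0.0647).

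Of all genes that passed in females, 430 were higher and 514 lower, and with median scaling 599 were higher and 466 lower; the members' count was 2 higher and 2 lower in both. These counts within a sex rest on 2 arrays against 2 and depend on single arrays. In males, Nfil3 alone passed without male vehicle replicate 1 or male FA replicate 2, and Nfil3 and Dbp without male FA replicate 1; Dbp also did not pass without male vehicle replicate 2 (limma adjusted p = 0.0528). In females, Nfil3 alone passed without female vehicle replicate 1 or 2. The call of Dbp in females was also lost without male vehicle replicate 1 or 2. It was lost as well without the detection filter (limma adjusted p = 0.0733) and with array weights (0.0993). Array weights also ended the call of Per1 in females (limma adjusted p = 0.0706). The 2 arrays of each group had equal weights, 0.443 in female FA and 1.198 to 1.434 in the other groups. Thus this setting lowered female FA as a group and did not single out its replicate 2.

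**Figure D2:**
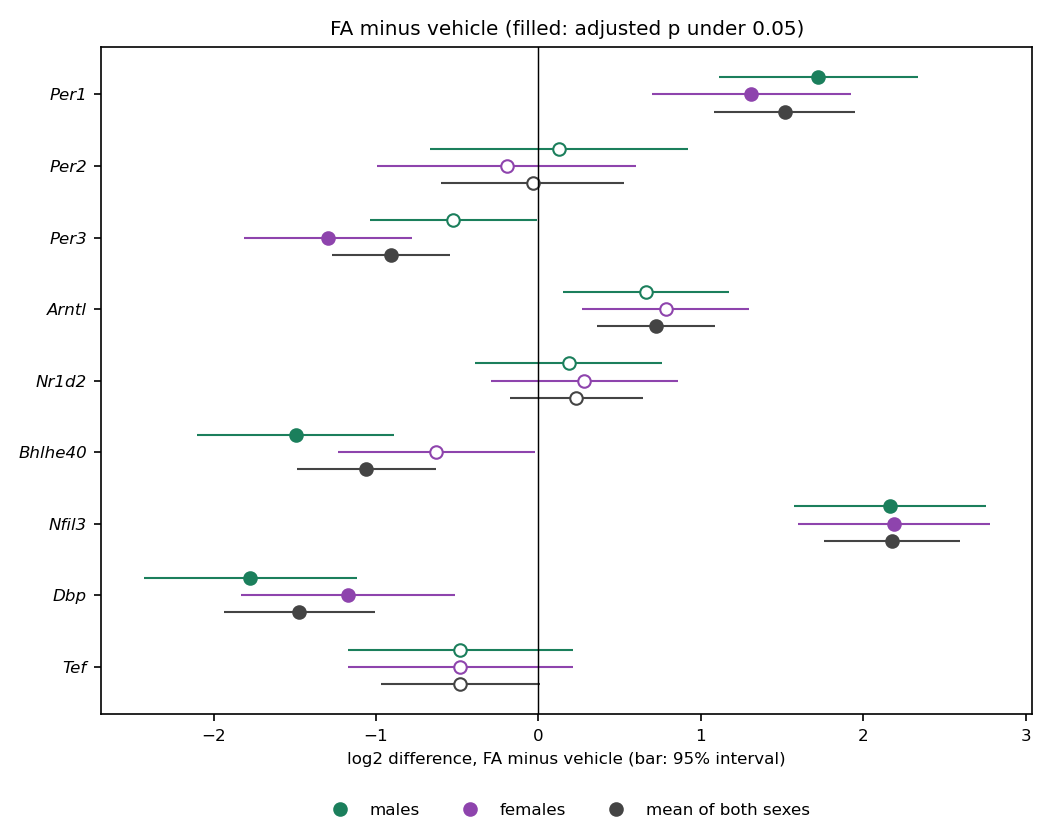
Log2 difference, FA minus vehicle (horizontal axis), of each gene in males (green), in females (purple) and as the mean of both sexes (grey), with 95% intervals from the fit; filled points passed at an adjusted p under 0.05. Nfil3 lies at 2.17 in males and 2.19 in females, while Bhlhe40 and Per3 are the pair of genes whose sex-specific values lie farthest apart.

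The comparison of the FA effects between the sexes asks whether males and females responded differently. None of the 9 genes passed (0 of 9 in limma, where 0.0212% of all genes, 2 of 9416, passed). At an unadjusted p under 0.05 there were 2 of 9, Bhlhe40 and Per3, where 6.55% of all genes were. Bhlhe40 fell by 1.495 ± 0.26 log2 in males, and in females its difference was -0.63 ± 0.26, which did not pass (limma adjusted p = 0.162). The male minus female difference of these was -0.87 ± 0.37 (95% interval -1.72 to -0.01, limma adjusted p = 0.731).

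Per3 ran the other way, at -0.52 ± 0.22 log2 in males, which did not pass (limma adjusted p = 0.204), and -1.30 ± 0.22 in females. Its male minus female difference was 0.77 ± 0.31 (95% interval 0.04 to 1.5, limma adjusted p = 0.731), with 2 of the 4 FA arrays not above background for its probe. For Nfil3 the difference of effects was -0.02 ± 0.36, with an interval of -0.86 to 0.81 that leaves room for a difference in either direction. For Dbp it was -0.60 ± 0.40 (-1.53 to 0.33) and for Per1 0.41 ± 0.37 (-0.46 to 1.28). With 2 arrays a group, differences of this size could not be told from none.

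Levels by sex were compared within each treatment and, as a comparison added after the data were seen, over both. Per2, Per3, Dbp and Tef had lower means in males and Nfil3 a higher one, but none of the 9 genes passed in any of the 3 comparisons in limma. At an unadjusted p under 0.05 there were 4 of 9 in FA skin (12.4% of all genes), 4 of 9 in vehicle skin (5.79%) and 5 of 9 over both (11.3%). Few genes passed at all: 0.202% in FA skin, 0.0743% in vehicle skin and 0.117% over both treatments.

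Per2 had the widest gap. Its arrays stood at 7.66 and 7.46 in FA males against 8.62 and 9.37 in FA females, and at 7.87 and 6.99 in vehicle males against 9.14 and 9.25 in vehicle females. All 4 male arrays lay below all 4 female arrays, which was so, in one direction or the other, for 3.84% of all genes and, of the 9, for Per2 alone. The male minus female difference was -1.44 ± 0.34 log2 in FA skin (limma adjusted p = 0.209) and -1.76 ± 0.34 in vehicle skin (limma adjusted p = 0.259). Over both it was -1.60 ± 0.24, 3.03-fold lower in males (95% interval -2.16 to -1.04, limma adjusted p = 0.0629), the rank 6 of 9416 genes from the most negative. Outside the 9 genes, Cry2 and Ciart of the core and accessory loop also had all male arrays below all female arrays. Their differences over both treatments were -0.71 ± 0.18 and -0.65 ± 0.15, and neither passed (limma adjusted p = 0.211 and 0.183).

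The Per2 difference lay close to the threshold. It passed without female FA replicate 1 (-1.78 log2, limma adjusted p = 0.00148) or replicate 2 (-1.41, adjusted p = 0.0182), where 15.3% and 0.712% of all genes passed, and did not pass without any of the other 6 arrays. The second Per2 probe stood at 6.97 and 6.79 in FA males, 7.90 and 8.36 in FA females, 6.95 and 6.50 in vehicle males and 8.24 and 8.28 in vehicle females. In the fit over all 13247 probes that passed the detection filter, it passed at -1.39 ± 0.16 (limma adjusted p = 0.0441). There the main probe had an adjusted p of 0.0727 in limma. The probe that was above background on the 2 male FA arrays gave 0.13 ± 0.15 (limma adjusted p = 0.78).

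Dbp averaged 10.46 in males and 11.55 in females over both treatments, a difference of -1.10 ± 0.20 log2 (limma adjusted p = 0.097, rank 8 from the most negative). Its highest male array lay above both FA females and below both vehicle females. Per3 averaged 5.41 in males and 6.24 in females (-0.83 ± 0.16, limma adjusted p = 0.107). Its gap was -0.44 ± 0.22 in FA skin and -1.21 ± 0.22 in vehicle skin. Tef averaged 10.35 in males and 10.93 in females (-0.58 ± 0.21, limma adjusted p = 0.359). Nfil3 went the other way, at 7.94 in males and 7.24 in females (0.69 ± 0.18, limma adjusted p = 0.213). Without female FA replicate 1, Per2, Per3, Dbp, Nfil3 and Tef all passed, with adjusted p of 0.00148, 0.00971, 0.00611, 0.0105 and 0.0365 in limma; in that fit 1436 of all 9416 genes (15.3%) passed, and the array left for that group is the one with the high background. Per1, Nr1d2, Arntl and Bhlhe40 had male minus female differences of -0.12, 0.04, 0.12 and -0.34 log2, and none of them passed in limma with 1 array left out.

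**Figure D3:**
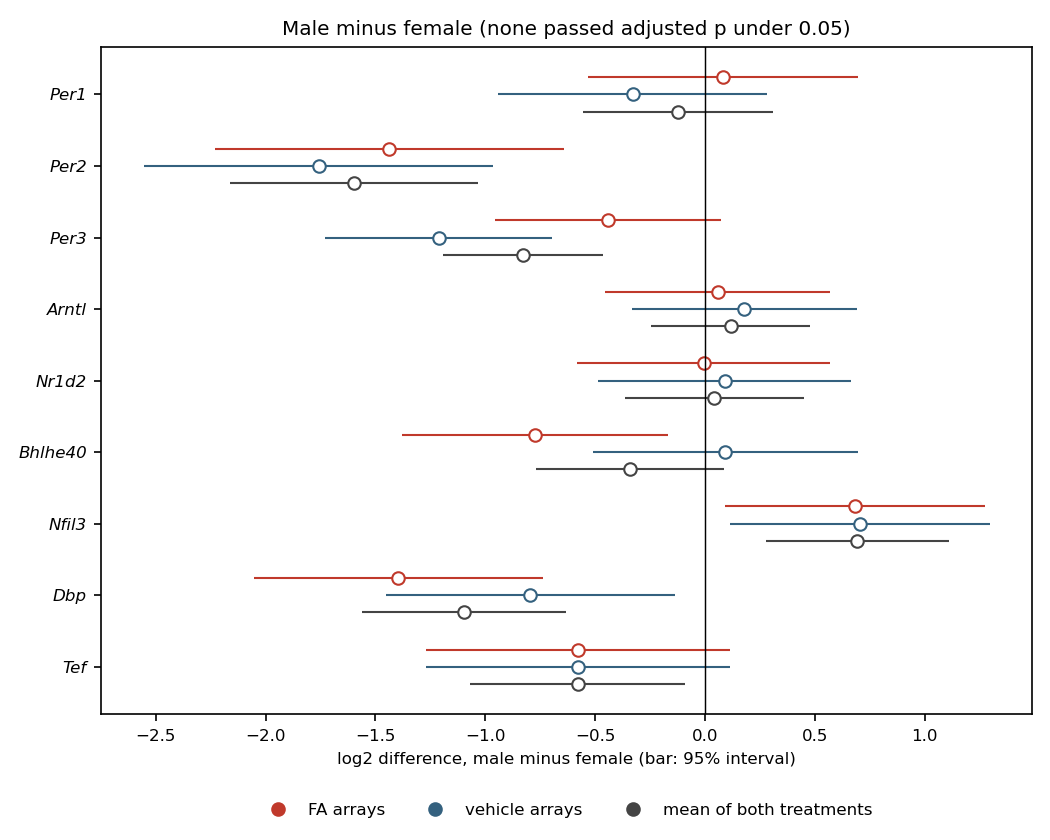
Log2 difference, male minus female (horizontal axis), of each gene on FA arrays (red), on vehicle arrays (blue) and as the mean of both treatments (grey), with 95% intervals from the fit; no point passed at an adjusted p under 0.05. Per2 lies farthest to the left over both treatments at -1.60, followed by Dbp at -1.10, and Nfil3 farthest to the right at 0.69.

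Marker levels of tissue below the epidermis also stood apart by sex. Skeletal muscle markers had array means of 9.66 to 10.78 log2 in FA males, 5.49 to 6.48 in FA females, 8.88 to 8.89 in vehicle males and 6.96 to 8.34 in vehicle females. Their median male minus female difference was 4.36 log2 in FA skin, where 4 of 9 passed. It was 1.21 in vehicle skin, where 0 passed in limma, and 2.65 over both, where 1 passed. Of all genes, 0.202% passed in FA skin, 0.0743% in vehicle skin and 0.117% over both. In FA females, 3 of these 9 markers were above background on both arrays and 3 on neither. Fibroblast markers had a median difference of 1.16 between males and females (0 of 8 passed). Their array means were 6.51 to 7.03 in FA males, 5.32 to 6.06 in FA females, 7.84 to 8.68 in vehicle males and 6.46 to 6.68 in vehicle females. In FA females, 1 of these 8 markers was above background on both arrays and 2 on neither. The part of such tissue in the sex differences of Per2, Dbp, Per3, Tef and Nfil3 was not tested.

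The rest of the pathway was read from 3 lists of genes. Each list had the same counts in males alone as in females alone. In the core and accessory loop 2 of 8 passed lower. Among the enzymes 1 of 9 passed higher, and among the outputs 2 of 9. Of all genes, 8.19% passed in males alone, 10% in females alone and 20.8% over both sexes. The enzymes' count within a sex was thus near the share of all genes. Of the core and accessory loop, 8 of 13 listed genes were measured; with FA over both sexes 1 passed higher and 2 lower, and the median was 0.20 log2. Clock, the partner of BMAL1, rose like Arntl to 9.79 in FA skin, against 9.04 in vehicle skin (0.74 ± 0.15 log2, limma adjusted p = 0.0139). Also like Arntl, it passed in neither sex alone (limma adjusted p = 0.0571 in males and 0.0959 in females). Tipin fell to 7.01 in FA skin, against 7.95 in vehicle skin (-0.94 ± 0.12, limma adjusted p = 0.00216). Timeless, the partner of Tipin at the DNA replication fork, was at least 2.85-fold lower in FA skin (limma adjusted p = 0.000133), where its mean of 4.79 lay under the lowest detected signal, against 6.69 in vehicle skin.

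Nr1d1 (REV-ERB alpha), the close relative of Nr1d2, stood at 8.30 in FA skin and 8.03 in vehicle skin (0.27 ± 0.14 log2, limma adjusted p = 0.207). Cry2, a partner of the PER proteins, stood at 7.85 in FA skin and 7.56 in vehicle skin (0.29 ± 0.18, limma adjusted p = 0.299). Neither passed. Both are named for their roles, after their values were seen.

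Of the kinases, phosphatases and ubiquitin enzymes that act on clock proteins, 9 of 15 were measured; 2 passed higher and 1 lower, with a median of 0.10 log2. Csnk1e, casein kinase 1 epsilon, which phosphorylates PER proteins, rose to 9.96 in FA skin, against 9.11 in vehicle skin (0.85 ± 0.14, limma adjusted p = 0.00677). Usp2, a deubiquitinase whose own gene cycles with the clock, rose to 10.03 in FA skin, against 9.22 in vehicle skin (0.81 ± 0.19, limma adjusted p = 0.0255). Ppp1ca, a catalytic subunit of protein phosphatase 1, fell by 0.43 ± 0.12 (limma adjusted p = 0.0407). Neither Usp2 nor Ppp1ca passed in a single sex. Their limma adjusted p-values were 0.0861 and 0.306 in males and 0.153 and 0.0853 in females.

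Of the known output genes of the clock or of the PAR-bZIP factors, 9 of 13 were measured; 3 passed higher and none lower, with a median of 0.46 log2. Cyp2b10, a cytochrome P450 gene that the PAR-bZIP factors are known to activate in mouse liver, rose 7.60-fold, to 11.30 in FA skin, against 8.38 in vehicle skin (2.93 ± 0.17, limma adjusted p = 0.00011). Dbp, a PAR-bZIP activator, fell in the same skin, and Tef did not pass. A link between either factor and Cyp2b10 was not tested. Klf9, a zinc finger factor known to be induced by glucocorticoids, rose 3.75-fold (1.91 ± 0.12, limma adjusted p = 0.000133). Cdkn1a, the cell cycle inhibitor p21, rose by 0.48 ± 0.12 (limma adjusted p = 0.0285) but passed in neither sex alone (limma adjusted p = 0.0773 in males and 0.199 in females). Wee1, the mitotic kinase gene known as a CLOCK and BMAL1 target in mouse liver, is likewise named for its role. It stood at 5.78 in FA skin and 5.02 in vehicle skin, a difference of 0.76 ± 0.24 that did not pass (limma adjusted p = 0.0624). In vehicle males its mean of 4.79 lay under the lowest detected signal.

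**Figure D4:**
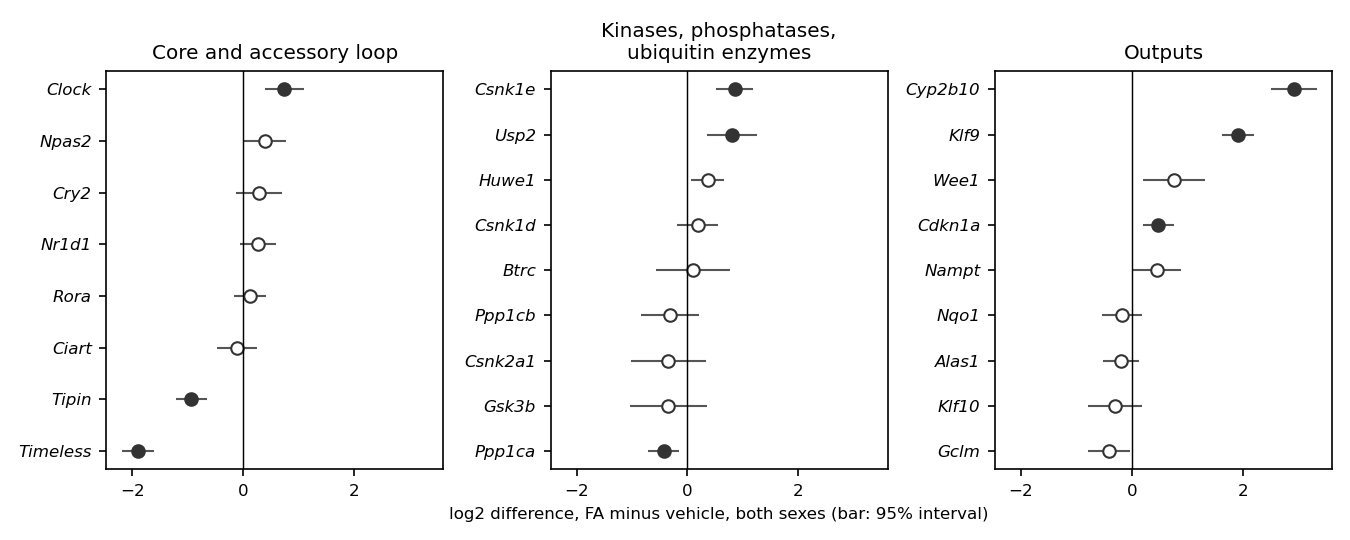
Log2 difference, FA minus vehicle over both sexes (horizontal axis), of the 26 other clock-related genes measured, in 3 panels by role, with 95% intervals; filled points passed at an adjusted p under 0.05. Cyp2b10 and Klf9 lie farthest to the right and Timeless farthest to the left.

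Genes with the most similar pattern over the 8 arrays were found by the root mean square difference between gene-centred log2 values, over 9407 other genes. Nearest to Per1 were Fam214b (0.135), Tepsin (0.161) and Gpx3 (0.177), the last encoding an extracellular glutathione peroxidase. Their FA differences were 1.43, 1.41 and 1.69 log2, beside 1.52 for Per1. Nearest to Dbp were Ccnd2 (0.307), Cx3cl1 (0.332) and Guca2a (0.339), which encode cyclin D2, the chemokine fractalkine and the peptide guanylin. Their FA differences were -1.35, -1.22 and -1.83 log2, beside -1.47 for Dbp. No gene came as near to Dbp as those named came to Per1.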

How the data were processed

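Each of 25697 probes has, per the file headers, an unprocessed intensity and a detection p-value on each of 8 arrays in a deposited table. The authors' deposited matrix holds log2 values of 13247 probes; the submitters' processing notes name limma, without a version. From the intensities, limma neqc (normexp background correction, offset 16, then quantile normalization) and a filter of detection p under 0.05 on at least 2 arrays gave those same 13247 probes, with log2 values within 5e-09. Of these, 12476 had 1 gene symbol and 771 none; the probe with the highest mean stood for each gene, leaving 9416 genes. With R 4.3.3 and limma 3.58.1, the 4 group means were fitted (lmFit, eBayes; 4 residual and 3.35 prior degrees of freedom). Tests were two-sided, adjusted by Benjamini-Hochberg over all genes, and intervals cover 95%; the script was tested on simulated data. Arrays give no read depth; their number limits the precision. A mean under the lowest detected signal gives a bound.

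The members and lists were chosen with earlier results of these data known. Members are all named; from each list, those that passed and up to 3 with the smallest p, which had all passed. Nr1d1, Cry2, Ciart and Wee1 were added outside this rule after their values were seen. Replicate numbers were not used as pairs, since over all 9416 genes the correlations of deviations between groups were -0.03 to 0.23. That range is not one for the clock genes. On the vehicle arrays, Per1 and Nfil3 were higher in replicate 2 than in replicate 1 in both sexes. Dbp, Tef, Nr1d2, Arntl and Per3 were lower in both, and Per2 and Bhlhe40 went opposite ways in the 2 sexes. What these directions reflect was not tested. The protein comparison planned for the D-box factors was not run. The array slide is not given in the sources used here.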

Additional observations from a re-analysis of the deposited data

How the results depend on the processing

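With 19 other settings, 839 of 920 values of single genes kept their direction and side of the threshold, 25 lost and 25 gained a call, and 31, all of differences that had not passed, changed sign. With every array kept, sign changes were Per2's FA effect over both sexes (0.024 with probes averaged), the sex difference in FA effects of Tef (-0.038 with median scaling) and Nr1d2 (0.32 with probes averaged), and Nr1d2's sex difference over both treatments (-0.10 with probes averaged). Leaving out 1 array in turn gave ranges of -0.26 to 0.19 (Per2, FA over both sexes), -0.57 to 0.18 (Per2, females), -0.31 to 0.57 (Per2, males) and -0.051 to 0.42 (Nr1d2, males); for differences of FA effects -0.12 to 0.76 (Per2), -0.30 to 0.25 (Nfil3), -0.29 to 0.29 (Tef), -0.33 to 0.14 (Nr1d2) and -0.41 to 0.17 (Arntl); for sex over both treatments -0.26 to 0.017 (Per1), -0.076 to 0.16 (Nr1d2) and -0.025 to 0.26 (Arntl). The count of members that FA changed over both sexes was 5 to 7 in every setting; it was 5 among probes detected on all 8 arrays, where Per3 was not tested. With array weights, 2 members passed in females. With 1 array left out, the count was 1 to 5 in females, 1 to 5 in males, 0 for the difference of FA effects, 0 to 1 for sex in vehicle skin, 0 to 4 for sex in FA skin and 0 to 5 for sex over both treatments, and the number of genes passed was 1008 to 3585 (FA over both sexes), 216 to 3004 (females), 208 to 1497 (males), 0 to 1135 (difference of effects), 2 to 46 (sex, vehicle), 1 to 2024 (sex, FA) and 1 to 1436 (sex, both). Members passed for sex over both treatments were 1 with median scaling, 2 among probes detected on all 8 arrays, 1 with values under the floor set to it, 1 with array weights and 2 with an intensity trend, which also gave 1 in FA skin. Array weights gave 506 genes in females, 1454 in males, 23 and 9 for sex in vehicle and FA skin and 54 over both; the trend gave 1502, 1280, 15, 73 and 112, and 7 for the difference of effects. That difference had 0 genes with median scaling, all-array detection, no filter, the floor or the replicate block, and 1 with every probe tested. For sex, all-array detection gave 2 genes in vehicle skin and 34 over both; no filter 3 in FA skin and 6 over both; the floor 34 and 38; median scaling 27 and every probe 17 over both; the replicate block 10 in FA skin. With the replicate block the members changed by FA were 6 over both sexes, and no member's call changed. Median scaling moved the median FA change of all genes to 0.15 log2 in females, against -0.04. The causes were not tested.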
